A study of Mus musculus with 37 samples.

Results

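The response of mouse splenic dendritic cells (sDCs) to lipopolysaccharide (LPS) was described from the mean normalized tag counts of 2 groups, sDCs left without LPS and IL-10 (untreated) and sDCs given 100 ng/ml LPS for 4 h. Transcript values were summed per gene, and a gene was kept if its mean reached 10 in either group, which left 5990 of 6509 genes. The copy of the deposited table used here ends in a broken line, so that these are part of the transcriptome and genes beyond it are not analysed here. The change was taken as log2((LPS + 1)/(untreated + 1)), and a gene is called raised or lowered where this change was at least 2-fold. By that rule 538 genes were raised (8.98% of those kept) and 686 were lowered (11.5%), and the remaining 4766 changed by less than 2-fold.

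The RNA-seq series covers 5 mouse myeloid cell types in 37 samples, and 4 of them form the comparison, 2 per group. All sDCs came from C57Bl6cJ mice and were enriched from spleen with magnetic beads, and the duplicates were separate biological samples. Another pair of groups from the same cells, which shares no sample with the first, served as a further comparison. It held sDCs given 100 ng/ml IL-10, an anti-inflammatory cytokine, and sDCs given IL-10 for 4 h and then LPS for a further 4 h. Both of its groups held IL-10, so it is not a repeat under the same conditions. The paper reports that IL-10 lowers part of the transcripts raised by LPS in sDCs. Whether genes not called again there reflect IL-10 or spread between samples was not tested. By the treatment scheme cells with LPS were harvested at 8 h and cells without it at 4 h (the labels give no harvest times), so that LPS and the longer culture cannot be told apart in either pair.

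Each group has a single deposited value per transcript, the authors' mean over 2 samples. No replicate spread, test or p-value can be given, and every change below is a difference between 2 means. Levels of different genes are not per length and are not compared. In enriched bulk cells a lower value can come from fewer cells of a type or from less RNA per cell, and these cannot be told apart. The highest value was 185338 in every group, which 5 transcripts shared in the untreated and 4 in the LPS group, so a change of a gene at this value is held down. The median change over all kept genes was -0.14 on the log2 scale, and changes near 0 are best read relative to it.

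Dendritic cells take up antigen in tissue with lectins and Fc receptors, degrade it in lysosomes and present it to T cells. LPS, a glycolipid of the outer membrane of Gram-negative bacteria, is sensed by Toll-like receptor 4 together with Ly96 (MD-2), which signals through NF-kB and MAP kinases and, through IRF3 and type I interferon, switches on interferon-stimulated genes. Dendritic cells that sense LPS mature: they display costimulatory molecules, secrete cytokines and lower antigen uptake.

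Both sides of the response were substantial but had different shapes. The raised side was smaller in number at the 2-fold limit, an order that turned with the scaling (610 raised and 557 lowered after centring on the median) and with transcripts as the unit (2124 and 2076). It reached further, with 222 genes raised at least 4-fold (3.71% of those kept) and 37 at least 32-fold. On the lowered side 152 genes were lowered at least 4-fold (2.54%) and 7 at least 32-fold. The median change was 1.71 among the 538 raised genes and -1.46 among the 686 lowered genes. The lowered genes started from a median untreated level of 351.25 and ended at 123.5, whereas the raised genes went from 202.5 to 764.5. A total of 16 raised genes were listed at 0 in untreated cells and 8 lowered genes were listed at 0 with LPS. Genes just inside the limit included Lpar1 (4.5 untreated, 10 with LPS) and Hmcn2 (141 and 70). Just outside it were Psmb10 (2258.5 and 4489) and Zfp414 (328 and 164).

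In the samples with IL-10 in the medium the same directions came back for most of these genes. Of the 538 raised genes, 521 (96.8%) had a positive change in the IL-10 pair and 380 (70.6%) were again raised at least 2-fold, while 3 were lowered at least 2-fold. In that pair 7.65% of all kept genes were raised and 9.3% lowered. Of the 686 lowered genes, 671 (97.8%) had a negative change and 436 (63.6%) were again lowered at least 2-fold, while 1 was raised. Genes raised in both pairs were 6.34% and genes lowered in both were 7.28% of those kept. The change was smaller in the IL-10 pair for 440 raised genes (81.8%) and for 554 lowered genes (80.8%). The main pair was the one that chose these genes. How far that choice or IL-10 accounts for the smaller changes was not tested. By comparison, IL-10 alone against untreated moved 80 genes up and 50 genes down at least 2-fold.

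**Figure D1:**
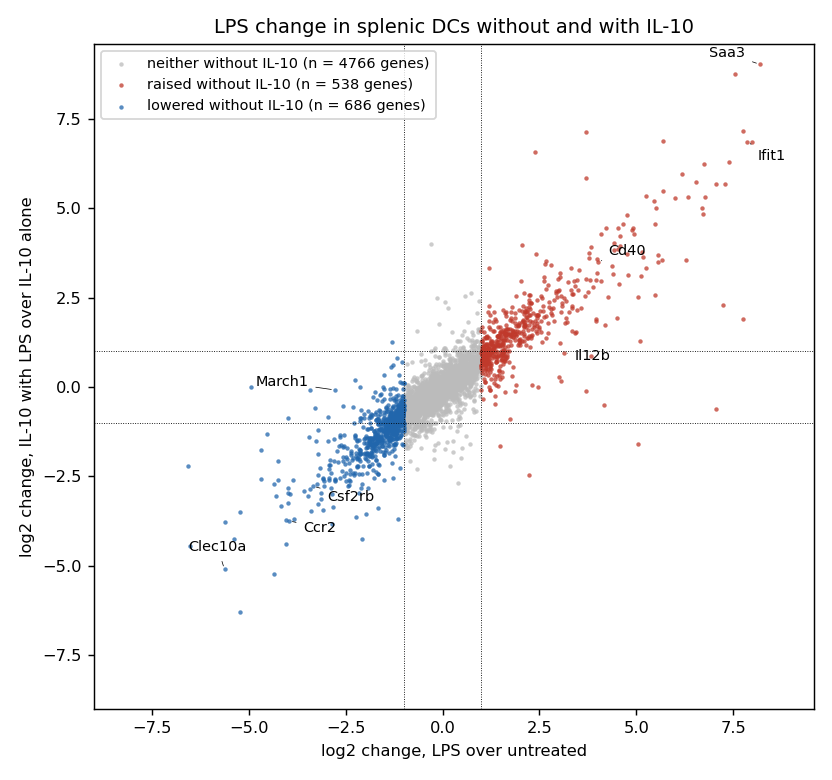
Log2 change with LPS of each of the 5990 kept genes, without IL-10 on the horizontal axis and in the presence of IL-10 on the vertical axis, with dotted lines at the 2-fold limit. Most genes coloured as raised (538) or lowered (686) lie in the matching corner, and Il12b and March1 are labelled examples whose change was under 2-fold with IL-10.

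Promoter sequences give a first view of the 2 sides. Among kept genes, 4403 matched by symbol to a RefSeq promoter (GRCm38.p6, 250 bases before to 50 after the gene start), 389 of them raised and 493 lowered. The interferon-stimulated response element was searched on both strands as GAAA, any 2 bases and GAAA. It was found in 42 raised promoters (10.8%) and in 11 lowered promoters (2.23%). For genes changed at least 4-fold it was in 26 of 162 raised (16%) and 4 of 107 lowered promoters (3.74%). Its share was 3.68% in promoters of kept genes and 3.49% in all 27025 promoters in the table. The stricter NF-kB motif was GGGA and CC with 4 bases between them, of which the inner 2 are TT. It was in 14 raised promoters (3.6%) and in 1 lowered promoter (0.203%), against 1.34% of kept genes and 1.17% of all promoters. A looser form, with any 4 bases between GGGA and CC, of which the stricter form is a subset, was in 35.2% of raised and 24.3% of lowered promoters, against 20.5% of all promoters and 27% of those of kept genes. The AP-1 motif TGACTCA was in 7.71% and 5.48% (3.93% of kept genes, 5.17% of all promoters). The E-box CACGTG was in 5.4% of raised and 9.13% of lowered promoters (9.63% of kept genes, 7.24% of all). The ETS motif GGAAGT (25.4% of raised and 23.5% of lowered promoters, 29.2% of kept genes, 24.1% of all) and the Sp and KLF motif GGGCGG (59.4%, 59.6%, 63.9% and 35.9%) were at like shares on both sides.

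The following 250 bases before the start are shown as examples of raised genes whose promoters hold a match, 4 interferon-stimulated genes and 1 cytokine gene, chosen after the matches were seen. Capitals mark matches to the interferon-stimulated response element in Ifit1 (chr19:34640639-34640888, plus strand), Ifit3 (chr19:34583279-34583528, plus strand), Oas1a (chr5:120907526-120907775, minus strand) and Oas3 (chr5:120777660-120777909, minus strand), and to the stricter NF-kB motif in Csf1 (chr3:107760470-107760719, minus strand).
Ifit1: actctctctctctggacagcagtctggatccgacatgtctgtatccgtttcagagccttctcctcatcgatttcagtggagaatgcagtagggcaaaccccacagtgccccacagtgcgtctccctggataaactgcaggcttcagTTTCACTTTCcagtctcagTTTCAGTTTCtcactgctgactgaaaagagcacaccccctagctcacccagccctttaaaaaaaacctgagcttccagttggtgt
Ifit3: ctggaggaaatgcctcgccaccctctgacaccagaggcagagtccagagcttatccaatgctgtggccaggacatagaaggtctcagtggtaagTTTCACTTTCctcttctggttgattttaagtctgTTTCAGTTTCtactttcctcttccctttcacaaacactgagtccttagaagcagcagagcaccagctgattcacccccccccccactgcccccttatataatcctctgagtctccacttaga
Oas1a: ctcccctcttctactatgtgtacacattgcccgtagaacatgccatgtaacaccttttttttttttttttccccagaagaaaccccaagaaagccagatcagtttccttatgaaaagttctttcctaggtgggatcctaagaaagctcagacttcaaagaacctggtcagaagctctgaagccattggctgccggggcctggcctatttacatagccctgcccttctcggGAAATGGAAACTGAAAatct
Oas3: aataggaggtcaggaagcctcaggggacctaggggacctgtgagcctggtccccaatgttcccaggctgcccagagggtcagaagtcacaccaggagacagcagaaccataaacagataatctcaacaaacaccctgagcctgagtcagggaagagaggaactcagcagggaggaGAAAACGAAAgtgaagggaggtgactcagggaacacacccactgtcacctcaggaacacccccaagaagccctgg
Csf1: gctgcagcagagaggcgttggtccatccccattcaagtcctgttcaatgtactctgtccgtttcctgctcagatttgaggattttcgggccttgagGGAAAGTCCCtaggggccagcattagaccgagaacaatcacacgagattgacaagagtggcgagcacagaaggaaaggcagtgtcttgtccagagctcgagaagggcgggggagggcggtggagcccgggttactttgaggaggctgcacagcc

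Ifit1, Ifit3 and Oas1a each held 2 matches, which overlap in Oas1a, and Oas3 and Csf1 held 1. The first match began 104 bases before the start in Ifit1, 156 in Ifit3, 20 in Oas1a, 75 in Oas3 and 154 in Csf1. A match describes letters in this window and is not evidence of a site in use.

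The ratio of observed to expected CpG was lower in promoters of changed genes on both sides. Its median was 0.67 in raised and 0.66 in lowered genes, against 0.76 in all kept genes, and a ratio under 0.5 was found in 37.3%, 36.1% and 22.3% of them. The median was 0.41 in the 107 promoters of genes lowered at least 4-fold and 0.53 in those of the 162 genes raised at least 4-fold, against 0.78 in genes that changed less than 2-fold. The shares under 0.5 were 59.8%, 48.8% and 18.7% in these sets. Promoters of the lowered genes Ccr2 (chr9:124101933-124102182, plus strand) and Tifab (chr13:56178886-56179135, minus strand) are shown as examples, chosen after their values were seen, with every CpG in capitals (1 in Ccr2 and 2 in Tifab).
Ccr2: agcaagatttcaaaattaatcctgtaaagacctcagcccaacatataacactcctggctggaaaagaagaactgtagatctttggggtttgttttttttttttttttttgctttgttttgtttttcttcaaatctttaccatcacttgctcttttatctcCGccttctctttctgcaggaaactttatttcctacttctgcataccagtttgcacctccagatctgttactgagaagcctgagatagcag
Tifab: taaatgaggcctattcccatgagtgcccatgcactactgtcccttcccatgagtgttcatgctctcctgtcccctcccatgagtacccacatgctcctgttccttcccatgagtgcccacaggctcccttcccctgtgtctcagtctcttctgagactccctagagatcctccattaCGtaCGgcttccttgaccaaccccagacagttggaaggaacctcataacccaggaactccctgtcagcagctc

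The 15 genes with the highest change among those that reached a mean of 50 and moved the same way at least 2-fold in the IL-10 pair were led by Saa3 (8.19), an acute phase apolipoprotein gene at chr7:53967368-53971046 of NCBIM37. Saa3 was at 0.5 untreated, 438 with LPS, 9.5 with IL-10 and 5493 with both. Its rise was the largest in both pairs of groups among these 15. Ifit1 (chr19:34715361-34724499), whose protein binds viral RNA, was at 65, 15299, 79 and 9261.5 in the same order. Both values with LPS lay far above both without.

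Interferon-stimulated genes made up much of this top set, with Ifit2 (7.28), Ifit3 (7.39), Oas1g (7.07), Oasl2 (6.69), Rtp4 (6.73) and I830012O16Rik (7.98), an Ifit family gene, beside Ifit1 (7.86). Il27 (7.76), which encodes one chain of the cytokine IL-27, went from 5.5 to 1405 and with IL-10 from 9 to 1434.5. Nos2 (7.56), the inducible nitric oxide synthase, was listed at 0 without LPS in both pairs and at 187.5 and 430 with it. The developmental genes Wnt3 (6.75), a secreted ligand, and Foxh1 (6.77), a transcription factor, stood in the same set at low levels, Wnt3 reaching 107 and Foxh1 327. Serpina3f (7.75), Ildr1 (7.24) and Mylk2 (6.55), a muscle myosin kinase gene, completed it. Serpina3f and Ildr1 were listed at 0 in untreated cells but at 44 and 11 with IL-10 alone, and their changes in the IL-10 pair were 1.91 and 2.3.

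Under the same conditions the 15 genes with the largest fall included surface receptors, enzymes and regulators of signalling. Gcg (-6.56), the glucagon gene, fell from 93.5 to a listed 0 and in the IL-10 pair from 48 to 9.5. Lpar5 (-6.53), a receptor for lysophosphatidic acid, was at 137.5 untreated and 0.5 with LPS, and at 75.5 and 2.5 with IL-10. Clec10a (-5.63), a galactose-binding lectin gene at chr11:69980125-69984336, was at 494 and 9, and at 548 and 15 with IL-10. In each of these the means with LPS lay below both means without it.

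Tifab (-5.62), an inhibitor of TIFA and TRAF6 signalling, stood at 1504 untreated and 29.5 with LPS, and at 1449 and 104.5 with IL-10. Hpgd (-5.22), the enzyme that inactivates prostaglandins, was at 1136.5 and 29.5, and at 814.5 and 71. Neither mean with LPS reached the lower of the means without it in either gene. Others were Ace (-5.39), the angiotensin-converting enzyme, Sept3 (-5.24), Hepacam2 (-4.36), Krt80 (-4.26), Thbd (-4.25), the thrombin receptor thrombomodulin, Ppfia4 (-4.04), Fcgrt (-4.03), the neonatal Fc receptor, Skint3 (-3.99) and Tmem150b (-3.98).

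**Figure D2:**
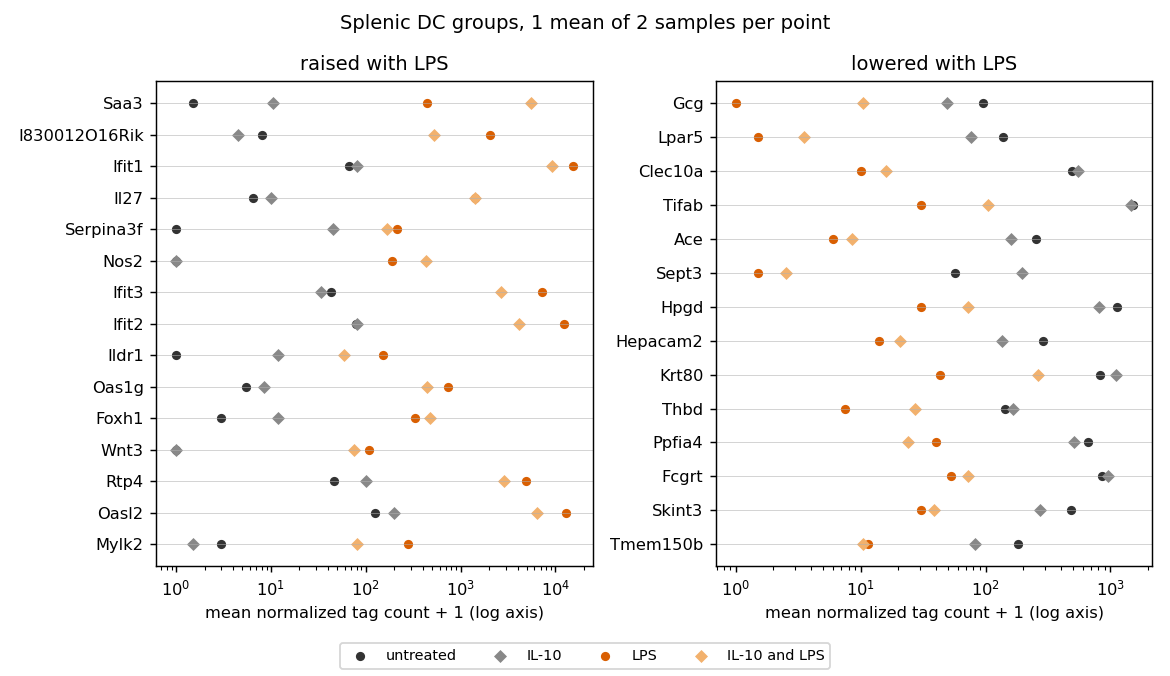
Mean normalized tag count plus 1 (log axis) of the 15 genes with the largest rise and 14 of the 15 with the largest fall among those that passed 2-fold the same way in the IL-10 pair, in the 4 sDC groups, each point the authors' mean of 2 samples. In every row both means with LPS lie on one side of both means without it, as the choice of genes required within each pair.

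The gene lists below hold only the members among the 6509 genes analysed, so that several well known LPS targets are not analysed here. Counts are to be read against 8.98% raised and 11.5% lowered among all kept genes.

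The antiviral list was the most one-sided. Of 45 interferon-stimulated genes kept, 40 were raised and 0 lowered, with a median change of 3.35, and 38 were raised again in the IL-10 pair (median 2.2). The sensors of viral RNA Ifih1 (MDA5) and Ddx58 (RIG-I) went from 1139 to 17700.5 and from 709 to 7240.5. Zbp1, a sensor of Z-form nucleic acid, went from 154 to 4274.5. The interferon-inducible GTPases Ifi47 (270 to 10372), Tgtp1 (152 to 6865), Igtp (249.5 to 3924) and Irgm1 (936 to 8359.5) and the guanylate-binding protein genes Gbp2 (16587 to 48414.5) and Gbp5 (4573.5 to 21015) were raised. Usp18, which restrains interferon receptor signalling, was at 1336 and 9407. The 5 members under 2-fold were Samhd1 (0.11), Trim25 (0.12), Trim34a (0.18), Uba7 (0.41) and Apobec3 (-0.07). The Oas, Tgtp and Trim30 families hold near-identical copies, so that the split of tags between their members is uncertain.

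Among signal transducers the changes were fewer. In the IRF, STAT, SOCS and JAK list 4 of 16 were raised and 0 lowered, among them Stat2 (2844.5 to 12213.5), Irf1 (9982 to 25904) and Cish (277 to 668.5), and 2 of the 4 were raised again with IL-10. Irf3 (-0.09), Irf5 (-0.07) and Stat6 (0.14) were close to the median of all genes. In the NF-kB list 5 of 16 were raised and 1 lowered. The raised members were Nfkbiz (1094.5 to 12240), which encodes the atypical inhibitor IkBzeta, Tnfaip3 (7375 to 34957.5), which encodes the deubiquitinase A20, the kinase genes Ikbke (2.08) and Map3k8 (1.43) and the subunit gene Nfkb1 (1.03), and 4 of the 5 were raised again with IL-10. Map3k14, the kinase NIK of the non-canonical pathway, was lowered from 12263 to 3478, and from 12144.5 to 4104 with IL-10.

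Cytokine genes were raised as a group. Of 9 interleukin genes kept, 7 were raised and 0 lowered (median 3.13), and 6 were raised again with IL-10. Ebi3, the partner chain of Il27, went from 197 to 4975 and with IL-10 from 198.5 to 4706. Il12b, the p40 chain shared by IL-12 and IL-23, went from 665.5 to 5828, but from 346 to 673.5 with IL-10. Il12a (10 to 363.5), Il23a (4 to 45.5), Il10 (26 to 220) and Il15 (894 to 3648) also passed 2-fold, and Il18 did not (130.5 and 135).

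Of 8 further cytokine genes, 6 were raised and 0 lowered, 4 of the 6 again with IL-10, with Csf1 (291 to 3462.5), the macrophage growth factor, and Lif (110 to 1127) among them. Flt3l, the ligand for the growth factor receptor of dendritic cells, was at 231 untreated and 138 with LPS. Among 13 TNF family ligands and receptors 6 were raised and 2 lowered, 6 and 1 of them again with IL-10. Tnf was at 390 and 18268.5, and at 417 and 5413 with IL-10. Cd70 (5.5 to 527) and Tnfsf9 (105.5 to 2296.5), ligands that costimulate T cells, were raised, and Tnfsf13 (38.5 to 1), the B cell factor APRIL, and Tnfrsf11a (6674.5 to 2959), the receptor RANK, were lowered. Of 6 chemokine genes, Ccl22 (6040 to 95000) and Ccl17 (16 to 597), which attract T cells bearing CCR4, were raised and Cxcl16 (25019 to 10197.5) was lowered.

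Maturation genes followed. Of 25 genes of maturation, costimulation and checkpoints, 11 were raised and 2 lowered (median 0.77), 9 and 2 of them again with IL-10. Cd40, at chr2:164881127-164898448, through which T cells license dendritic cells, was at 1824.5 untreated, 29391.5 with LPS, 2292.5 with IL-10 and 25934 with both. Cd86 (2344 to 14843.5) and Cd80 (2102 to 7933.5), the ligands of CD28, were also raised in both pairs. Inhibitory members moved in both directions, with Cd200 (1.6) and Lag3 (1.5) raised and Havcr2 (922 to 185.5), which encodes TIM-3, and Cd200r1 (537.5 to 146) lowered.

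Several maturation genes changed by less than 2-fold. Ccr7, the receptor that guides mature dendritic cells to lymph nodes, was at the maximum of 185338 in untreated cells and at 140082.5 with LPS. Il4i1 was at 64796.5 and 78680, and Icosl, a costimulatory ligand, at 11854 and 19482.5. The change of Ccr7 is limited by that maximum. The levels of these genes before isolation were not analysed here.

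Of 25 inflammatory effector genes 14 were raised and 1 lowered (median 1.2), 12 and 1 of them again with IL-10. Ptgs2, the inducible cyclooxygenase, was at 75.5 and 3434.5, and at 114.5 and 2738 with IL-10. Ptges, a prostaglandin E synthase, was at 75.5 and 314.5, and at 68 and 1077 with IL-10. Gpr84 (4.75), a receptor for fatty acids, Ptx3 (5.25), a soluble pattern recognition protein, and Cfb (2.41), complement factor B, were raised as well.

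In the apoptosis list 5 of 19 were raised and 0 lowered, and 4 of the 5 were raised again with IL-10. Bcl2l1, which encodes the survival protein Bcl-xL, was at 542 untreated, 16156 with LPS, 531 with IL-10 and 11248 with both. Both means with LPS lay far above both without it. Casp4, which encodes the murine caspase-11 that senses cytosolic LPS, was at 474 and 2685.5, and Fas, a death receptor, at 794 and 2181. The kinase genes Pim1 (1.09) and Pim2 (1.58) were the other raised members.

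Antigen presentation genes changed little for most of the members analysed. In the MHC class I list 4 of 14 were raised and 0 lowered, the raised being H2-T24 (97 to 573), H2-T22, Tapbp (12111.5 to 24375.5), which loads peptide, and Tapbpl, and 1 of the 4 was raised again with IL-10. The classical genes H2-K1 (-0.4) and H2-D1 (-0.26) changed by less than 2-fold. Proteasome subunits had positive changes in 20 of 20 (median 0.35), with 1 raised at least 2-fold. Only 9 of the 28 genes on the MHC class II list were in the data. The class II chain genes H2-Aa and H2-Ab1, and Cd74 and Ciita, were not among them, so their change is not known here. Among the 9, 1 was raised (1.05), again with IL-10, and 2 were lowered. The lowered members were Ifi30 (16395 to 6547.5), a lysosomal thiol reductase, and March1, the ubiquitin ligase that removes class II molecules from the surface of resting dendritic cells. Neither of the 2 passed 2-fold in the IL-10 pair (-0.73 for Ifi30). March1 went from 874 to 126.5 with LPS, but was at 1138.5 and 1077 in the IL-10 pair, a change of -0.08.

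Among the 43 gene lists the uptake receptors had the lowest median. Of the marker lists described below, those of dendritic cells in general (-1.65), neutrophils (-1.41) and NK cells (-1.41) had lower medians. Of 28 C-type lectins, Fc, scavenger and complement receptors kept, 19 were lowered and 2 raised (median -1.36), and 17 were lowered again with IL-10. Fcgrt was at 859 and 51.5, and at 950 and 71 with IL-10. Mgl2 (205 to 12.5), a lectin close to Clec10a, Clec9a (243.5 to 49.5), which binds dead cells, Clec7a (3203.5 to 908.5), which binds fungal glucan as Dectin-1, and Clec4n (3392.5 to 1105), which encodes Dectin-2, were lowered. The mannose receptor gene Mrc1 (365 to 141.5) and the integrin Itgax (4075.5 to 818.5), which encodes CD11c, were also lowered.

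The 2 raised members were Clec4e (298.5 to 3178.5), the sensor Mincle, and Marco (28 to 227), a scavenger receptor. Clec4d (1248 and 1642), which pairs with Clec4e, changed by 0.4.

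**Figure D3:**
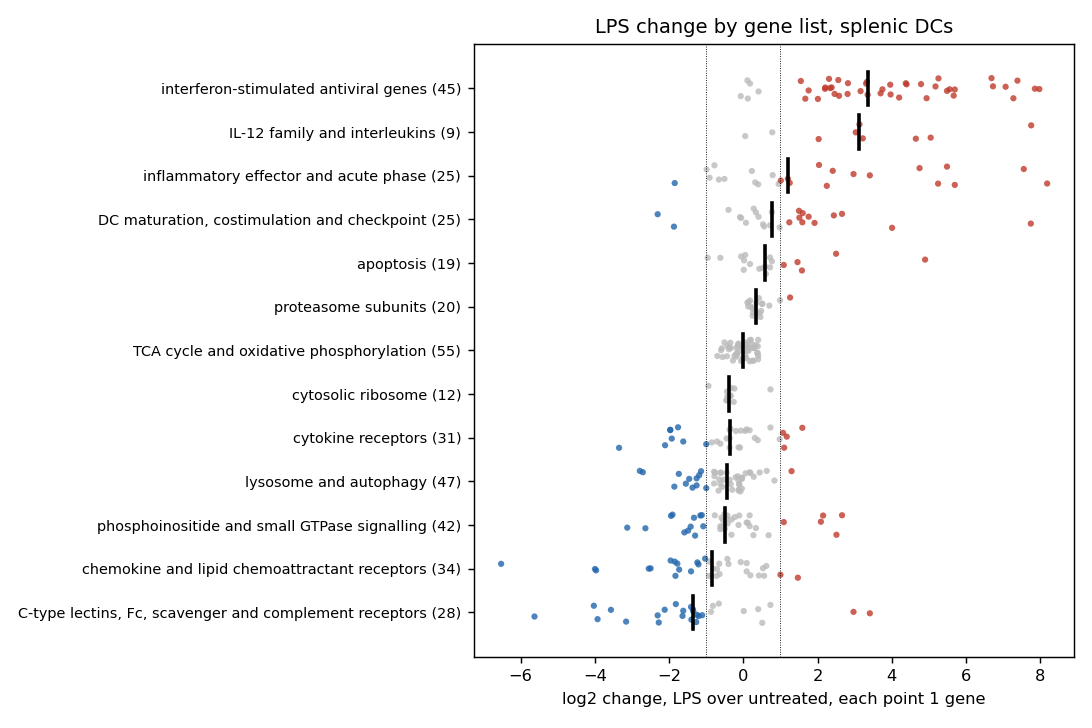
Log2 change with LPS over untreated of every kept gene of 13 lists, each point 1 gene and the black bar the list's median, with the number of genes in parentheses and dotted lines at the 2-fold limit. Interferon-stimulated genes lie furthest right (median 3.35) and lectin and Fc receptors furthest left (median -1.36), and the 55 genes of the TCA cycle and oxidative phosphorylation lie between the limits.

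Clec and Klr genes, which encode related lectin-like receptors of phagocytes and NK cells, lie together on chromosome 6, and the stretch that holds them (chr6:122220614-131197380 of NCBIM37) was described after their values were seen. Of 31 kept Clec and Klr genes there, 17 were lowered and 1 was raised (median -1.21), and 14 of the 17 were lowered again with IL-10. Of 67 other kept genes in the same stretch, 13 were lowered and 8 raised (median -0.28). The split was made by symbol, so lectin-like genes under other symbols, such as Cd69 (2.1) and Olr1 (-0.77), counted among the 67. Clec4e, the only raised Clec or Klr gene there, lay among Clec4d (0.4), Clec4n (-1.62) and Clec4b2 (-2.02).

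**Figure D4:**
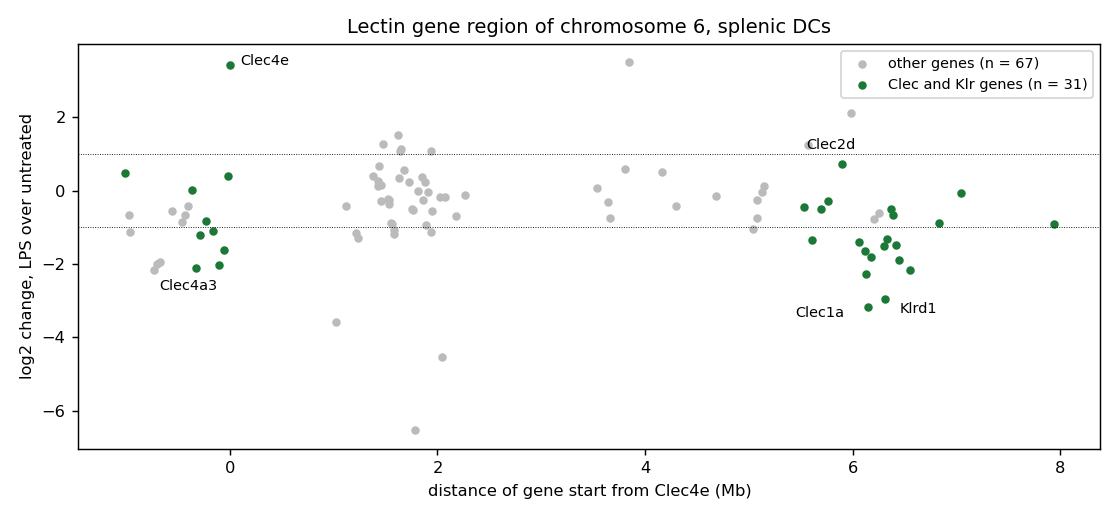
Log2 change with LPS over untreated against the distance of each gene's start from Clec4e in Mb, for 31 Clec and Klr genes (green) and 67 other kept genes (grey) of one stretch of chromosome 6, with dotted lines at the 2-fold limit. Most green points lie below 0 and 17 lie below the lower limit, whereas Clec4e lies above the upper one.

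Receptors for chemoattractants formed a further lowered group. Of 34 kept, 14 were lowered and 2 raised (median -0.84), and 11 were lowered again with IL-10. Ccr2, the receptor for monocyte chemoattractants at chr9:124016689-124028296, was at 2986.5 untreated, 190 with LPS, 5775.5 with IL-10 and 432.5 with both. Cx3cr1 (997 to 255) and Cxcr4 (7779.5 to 2158) were lowered too, as was P2ry10 (13777.5 to 5958.5). P2ry6, a receptor for UDP, was at 287 and 17, but at 423 and 231.5 in the IL-10 pair. P2ry2 (75 to 210), a receptor for ATP and UTP, and Lpar1 (4.5 to 10) were the 2 raised members.

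Cytokine receptors showed fewer but large changes. Of 31 kept, 8 were lowered and 4 raised (median -0.35), 6 and 1 of them again with IL-10. Csf2rb, the signalling chain of the receptors for GM-CSF, IL-3 and IL-5, was at 48569 untreated and 4769.5 with LPS, and at 41679.5 and 6095 with IL-10. Its close relative Csf2rb2 was at 15543.5 and 4069, and tags may be split between the pair. Csf2ra, the GM-CSF binding chain, was at 5717.5 and 4499. Receptor chains for interferons were among those lowered, with Ifngr1 at 4093 and 944.5 and Ifnar1 at 4538 and 2264.5, while Il15ra (1759.5 to 5287), which presents IL-15 to T cells, was raised.

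Lysosomal genes were lowered in part. Of 47 lysosome and autophagy genes, 12 were lowered and 1 raised (median -0.45), and 10 were lowered again with IL-10. Lipa, the acid lipase that frees cholesterol from its esters, was at 13686 and 1980, and at 12350.5 and 2003.5 with IL-10. Gm2a (5615.5 to 858), Galc (327 to 89.5), Asah1 (2264 to 771.5), Npc1 (2996 to 1085.5) and Smpd1 (304 to 137.5) act on the breakdown or export of lipids in lysosomes, and Manba and Man2b1 on that of glycans. Subunits of the lysosomal proton pump, such as Atp6v1f (-0.04), Atp6v1c1 (-0.03) and Atp6v0c (-0.79), stayed under 2-fold. The raised member was Sqstm1 (19034 to 47026), the autophagy receptor p62 (0.87 in the IL-10 pair).

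Pattern recognition receptors moved both ways, with 4 raised and 5 lowered of 20, 2 and 5 of them again with IL-10. Tlr13 (1584 to 472.5), Tlr8 (198.5 to 51.5), Nlrp1a (157 to 29.5), Nlrp1b (297.5 to 40) and Card9 (2108.5 to 655.5), the adaptor downstream of Dectin-1, were the lowered members. Ly96, the LPS-binding partner of Toll-like receptor 4, was raised from 234 to 490.5, and Tlr7 from 360 to 793.5.

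Intracellular signalling genes of the phosphoinositide and small GTPase list were lowered in 12 of 42 and raised in 5, 8 and 4 of them again with IL-10. Pld4, an exonuclease of the phospholipase D family, was at 3556.5 and 406, and Inpp5d, the lipid phosphatase SHIP-1, at 5107 and 1815.5. Rasa2 (2283 to 14440) and Rapgef2 (1167 to 6645) were raised. Among 26 integrins and adhesion genes 7 were lowered and 5 raised, 6 and 3 of them again with IL-10. Itgb2 (5168.5 to 2017), the chain shared by leukocyte integrins, and Itgb7 (3886 to 1169.5) were lowered, and Itgb8 (877.5 to 3920) and Alcam (2805.5 to 13254) were raised.

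Of 32 transcription factors tied to the dendritic cell lineage, 6 were lowered and 5 raised, 4 of each again with IL-10. The lowered members included Runx1 (2075 to 552) and Rbpj (7934.5 to 3175), the mediator of Notch signals. Raised members were Mycl1 (369.5 to 1746), Batf (131.5 to 564), Nr4a2 (352.5 to 1286.5), Myc (176.5 to 522.5) and Nr4a1. In the list of Notch, TGF-beta and Wnt genes 6 of 24 were lowered and 1 raised, of which 2 and 1 were called again with IL-10, with Tgfbr1 at 2942.5 and 870.5 and Tgfbi at 2011 and 414. In the AP-1 and MAP kinase list 4 of 29 were lowered and 3 raised, 2 and 3 of them again with IL-10, and Fos was at 556.5 and 126.5.

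Among lists of general cell functions, none of 55 genes of the TCA cycle and oxidative phosphorylation changed 2-fold (range -0.7 to 0.4), nor did any of 12 cytosolic ribosomal protein genes (median -0.39). Of 19 glycolysis genes 2 were raised, Pfkp (1129 to 2973) and Eno2 (2476.5 to 6001.5), and 2 lowered, Slc16a3 (1470.5 to 306.5), the lactate exporter, and Aldoc, and 1 and 2 of them were called again with IL-10. Of 48 cell cycle genes 7 were raised and 4 lowered, with Ccnd2 (577 to 6511), a cyclin that drives entry into S phase, the most raised, and 6 and 2 of them were called again with IL-10. In the sterol and fatty acid list 4 of 32 were raised and 5 lowered, 3 of each again with IL-10. Idi1, an enzyme of isoprenoid synthesis, went from 14438 to 185541.5, with 1 of its transcripts at the maximum, while Lpl (3539.5 to 774.5), the lipoprotein lipase, was lowered. Btg1, an antiproliferative gene, went from the maximum of 185338 to 41497, and from 185338 to 45720 with IL-10.

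The sDC label was compared with defining markers, and only part of them were higher in untreated sDCs than in untreated cells of each of the other 4 types. This held for 2 of 5 general dendritic cell markers, 5 of 7 cDC1 and 5 of 9 cDC2 markers, and also for 5 of 6 NK cell and 4 of 7 T cell markers. Dpp4 (15226), Ccr7 (185338), Cd4 (2306.5), Clec4a4 (1103.5) and Ly75 (7627.5) were among them. Itgax (4075.5, against 13861 in macrophages), Clec4a2 (1371.5, against 3710 in neutrophils), Mgl2 (205, against 1387.5 in neutrophils) and Tlr3 (26, against 264 in macrophages) were not. With LPS 3 of 5 general dendritic cell markers and 6 of 9 markers of the cDC2 subset were lowered, and 0 of either were raised. The summed level of the cDC2 list was 12403 untreated and 6694.5 with LPS, and 12210.5 and 7594 in the IL-10 pair. For the cDC1 subset 3 of 7 markers were raised and 3 lowered, and Xcr1 was at 189.5 and 201.5.

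Markers of other cells were present and moved in part. Of 8 neutrophil markers 4 were lowered, the granule genes Mpo (4890 to 714), Elane (1767.5 to 366.5), Prtn3 (1134 to 280.5) and Mmp8 (1362.5 to 377.5), and the summed level of the list was 10298 and 11270.5 without LPS and 2766 and 3333.5 with it. Of 6 NK cell markers 4 were lowered, Klrd1 from 1906.5 to 248, with sums of 3146 and 2823 without and 784.5 and 790.5 with LPS. In the T cell list 0 of 7 were called, with sums of 16395.5 to 17347 that were mostly Tcf7 (15963 untreated and 15383 with LPS), and the other members changed by -0.45 to 0.2. The list of erythroid cells had 0 of 6 called (sums 2476.5 to 3248) and the B cell list had 1 of 5 raised and 1 lowered (sums 1971 to 2382.5). Of 8 monocyte and macrophage markers 2 were raised and 3 lowered (sums 6996.5 to 8973), and of 8 plasmacytoid markers 2 were raised and 1 lowered (7137.5 to 12058.5). No marker was called in the lists of mast cells and basophils (3 kept, sums 4366.5 to 9193.5) and plasma cells (2 kept, 2081.5 to 3828). In the list of stroma and endothelium 1 of 5 was raised, Kdr (48.5 to 1705), with Col1a2, Col3a1 and Pdgfra listed at 0. The part of these cells in the lowered Klr and lectin genes was not tested.

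The other myeloid cells were compared at the level of the same genes, with no test since each group is again 1 mean. They were also prepared differently. Macrophages were elicited in the peritoneum with thioglycollate, and bone marrow neutrophils were kept overnight with GM-CSF. Mast cells and eosinophils were derived from bone marrow. Cell type and preparation cannot be told apart here. Of the sDC raised genes that reached 10 in macrophages, 287 of 488 were raised there too (58.8%, against 12.6% of all kept genes). In neutrophils it was 211 of 475 (44.4% against 8.71%), in mast cells 118 of 424 (27.8% against 4.71%) and for eosinophils 55 of 399 (13.8% against 2.16%). Of the sDC lowered genes 309 of 621 were lowered in macrophages (49.8% against 14.7%) and 176 of 603 in neutrophils (29.2% against 7.83%). Mast cells shared 110 of 550 (20% against 5.41%) and eosinophils 12 of 537 (2.23% against 0.702%). In eosinophils 15 of those 537 genes (2.79%) were raised instead, against 2.16% of all kept genes there, so that more moved the opposite way. A total of 38 genes were raised at least 2-fold in all 5 cell types and 3 were lowered in all 5, while 199 raised (37%) and 276 lowered genes (40.2%) had that call in sDCs alone among the 5, genes under 10 elsewhere included.

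Opposite changes of at least 2-fold were rarer in macrophages than such changes among all kept genes. Of the sDC raised genes 23 of 488 (4.71%) were lowered there, against 14.7% of all kept genes, and of the lowered genes 45 of 621 (7.25%) were raised, against 12.6%. Examples are given, chosen after their values were seen. Bcl2l1 was at 2768 untreated and 1297 with LPS in macrophages, a change of -1.09 against 4.9 in sDCs, and at 2819 and 5247 in neutrophils. Kdr, a receptor for VEGF, was at 382 and 171.5 in macrophages, against 48.5 and 1705 in sDCs. Rbpj (3787 to 8920) and the kinase gene Lrrk2 (564 to 2794.5; 1930.5 to 629.5 in sDCs) were raised in macrophages and lowered in sDCs. Csf2rb was at 9687.5 and 10526.5 in macrophages (0.12) and at 59764.5 and 44804.5 in mast cells (-0.42), beside -3.35 in sDCs. Whether these differences between cell types exceed the spread between samples was not tested.

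**Figure D5:**
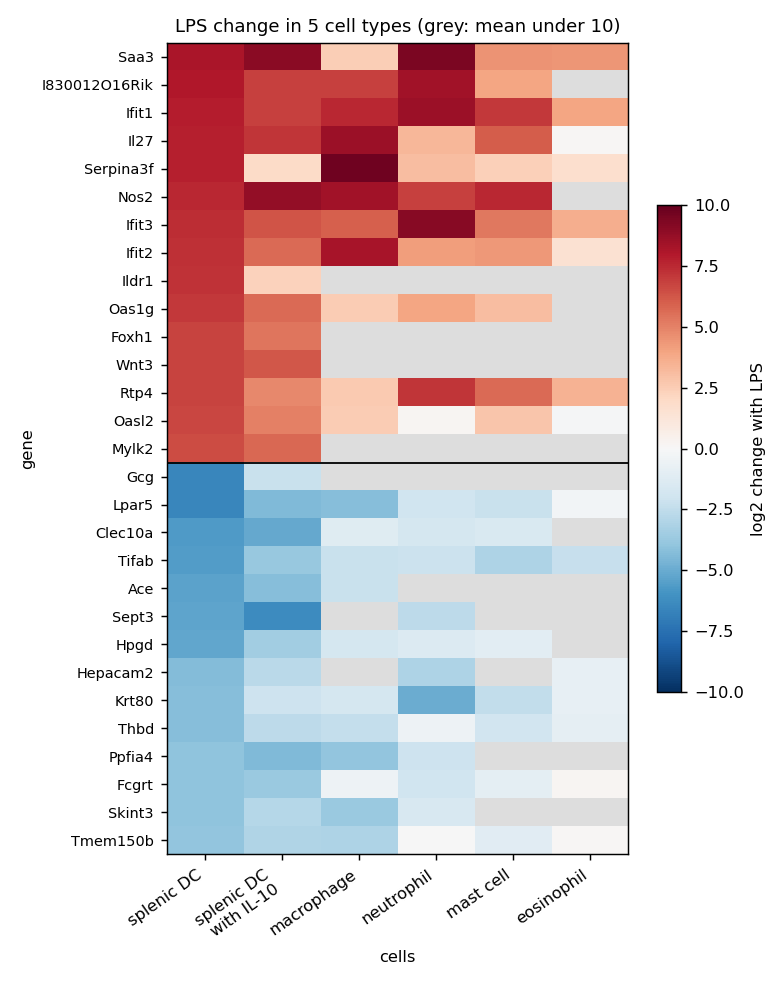
Log2 change with LPS of the same 15 raised and 14 lowered sDC genes (above and below the black line) in sDCs without and with IL-10, macrophages, neutrophils, mast cells and eosinophils, with grey for genes whose mean stayed under 10 in both groups. In macrophages 11 of 11 measured raised genes and 10 of 11 lowered genes passed 2-fold in the sDC direction, and in eosinophils 6 of 8 and 1 of 7.

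Transcripts of a gene could move apart. Of 2481 genes with 2 or more transcripts that reached a mean of 50, 55 had one transcript raised and another lowered at least 2-fold, and 6 of the 55 showed the same opposition in the IL-10 pair. In Hagh, which encodes hydroxyacylglutathione hydrolase, ENSMUST00000118788 was at 290.5 untreated and listed at 0 with LPS, and at 257 and 0 with IL-10. ENSMUST00000024974 of the same gene was at 21 and 225, and at 38.5 and 252. Slc25a42, a mitochondrial carrier, and 5930416I19Rik showed such an opposition in both pairs. In Pla2g6, Madd and Cyld it was seen only in the pair without IL-10. The transcript raised there went the other way in the IL-10 pair in Pla2g6 (50.5 to 0) and Cyld (58 to 0). In Madd that transcript was listed at 0 in both groups with IL-10. The values are estimates of tags shared by overlapping transcripts, and how far that assignment moved between samples was not tested.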

How the data were processed

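RNA-seq was deposited as 1 table of 18 group means, which are normalized values (unit score) and not raw counts. To make the deposited scores, the authors aligned reads to Ensembl mm9 transcripts (Bowtie 0.12.9, RSEM 1.2.1) and normalized tag counts for GC content with EDASeq. Each column is the mean of the 2 replicates of a group, and all columns share one maximum. The copy of the table analysed was cut off, with 17015 complete lines and 1 broken line at its end. Of these, 22 (0.129%) had no gene name and were left out, which left 16993 transcripts of 6509 genes. Of the 37 samples, 1 has no column and was not used here. All sDC libraries were TruSeq preparations. Summing per gene, pseudocount, minimum of 10 and the 2-fold limit are given with the results. Depth is not recoverable from normalized means, so that no counting interval can be given, and genes near the minimum are the least reliable.

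The table used holds no value per replicate (the reads were not used here), and no test was run. The members and gene lists were chosen with earlier results of these data known. Named genes were the 15 with the highest and the 15 with the lowest change that reached a mean of 50 and changed at least 2-fold the same way in the IL-10 pair, any member of 43 gene lists and 13 marker lists, and up to 6 genes with opposite transcripts; other genes were named after their values were seen, and a few items that meet the rule are not reported here. Gene positions are spans of the deposited transcripts in GENCODE vM1 (NCBIM37), which held 16791 of them. Promoters came from a RefSeq table of GRCm38.p6, without those on chromosome 18, the first listed promoter of a gene being used. Alternatives were other pseudocounts, minimums and fold limits, the most abundant transcript, centring on the median, transcripts as the unit and the IL-10 pair. The calls were run on simulated means with 4-fold changes, counting noise only and genes at 50 or more. That run held no spread between samples, so it does not show how reliable the calls are in these data. Python 3.11.15, numpy 2.4.6, pandas 2.3.3 and matplotlib 3.10.9 were used.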

Additional observations from a re-analysis of the deposited data

How the results depend on the processing

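The numbers of raised and lowered genes were 538 and 686. They moved by more than 1.5 times with another fold limit or unit: 880 and 1442 at 1.5-fold, 222 and 152 at 4-fold, and 2124 raised and 2076 lowered transcripts where each of 14101 transcripts was taken alone. Under the other alternatives they stayed within 1.5 times, between 459 and 625 raised and between 557 and 779 lowered. Raised genes were 44% of the changed genes. Centring on the median of all kept genes (-0.14) turned the order to 610 raised and 557 lowered, so that which side is larger rests on the scaling. The 30 genes named for their change kept their direction and at least 2-fold size with either other pseudocount, the most abundant transcript and centring, while the IL-10 pair and a minimum of 50 were conditions of their choice. Atxn3 (0 to 131.5, a change of 7.05) was left out by that condition, as its change in the IL-10 pair was -0.61. Centring changed the sign of 9 of 56 list medians, all close to 0, and the IL-10 pair that of 4, among them sterol and fatty acid metabolism and Trim genes. No paired analysis was possible because the table holds 1 mean per group and no replicate columns, and for the same reason leaving out a replicate and a replicate block were not run.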

Other observations

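Solute carriers, which move metabolites and ions across membranes, were called on both sides, with 13 raised and 15 lowered of 96 (median -0.13), 9 and 7 of them again with IL-10. The carnitine carriers Slc22a21 (134 to 985.5) and Slc22a5 (530.5 to 1217.5) and the inositol carrier Slc5a3 (334 to 1720) were raised. Slc40a1, the iron exporter ferroportin, was lowered from 2637 to 991.5, and from 2064 to 925 in the IL-10 pair. Among 183 Zfp genes 6 were raised and 11 lowered (3 of each again with IL-10), and among 20 Trim genes 7 were raised and 2 lowered (7 and 1 again), with Trim30c (9.5 to 678) the most raised and Trim7 (2454 to 413) the most lowered.

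Receptors of the Gpr, Lpar, P2ry and S1pr families were lowered in 12 of 35 and raised in 6, 8 and 5 of them again with IL-10. Some of these receptors, such as Lpar5, were also counted among the chemoattractant receptors above. Lpar3 (1515 to 436), Gpr55 (516.5 to 100) and Gpr162 (2882.5 to 1274) were lowered, and Gpr85 (14 to 205) and Gpr19 (57.5 to 275) were raised. Among ubiquitin ligases and deubiquitinases 7 of 114 were raised and 10 lowered (5 of each again with IL-10), March5 going from 1332.5 to 6030.5 and Rnf150 from 637 to 83.5. Of 90 vesicle traffic genes 5 were raised and 9 lowered (5 and 4 again with IL-10), and Rab8b, a GTPase of membrane transport, was at 11350 and 56443.

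Zfp genes, ubiquitin ligases and deubiquitinases, and vesicle traffic genes were called less often on both sides than all kept genes. Among all kept genes 8.98% were raised and 11.5% lowered. The remaining lists were also near that background or below it. Raised and lowered genes were 7 and 4 of 81 chromatin modifiers, 3 and 1 of 50 splicing and RNA-binding genes, 1 and 3 of 31 DNA repair genes, 1 and 1 of 18 Kruppel-like and Zbtb factors, 1 and 0 of 27 mitochondrial ribosomal genes, 0 and 1 of 26 translation factors, 0 and 0 of 9 tRNA synthetases and 0 and 1 of 48 mediator, polymerase and general factor genes. The last was Gtf2a1, a chain of the general factor TFIIA, at 59574.5 untreated and 9852 with LPS, and at 41475.5 and 8188 with IL-10.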
